A study of Mus musculus with 32 samples.

Results

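The transcripts of Apoe and Apoc1, a pair of neighbouring apolipoprotein genes on mouse chromosome 7, were followed in every library of the series. They were taken by symbol, 2 of the 24890 genes in the deposited tables, and both passed the filter on low counts that left 15036 genes. The cells were E14 mouse embryonic stem cells, an established wild-type line, kept on gelatin in medium with serum, LIF, 3 µM CHIR99021 (an inhibitor of GSK3) and 1 µM PD0325901 (an inhibitor of MEK). In the arm called NrESC the same medium also held 10 µM T0901317, a compound that activates the nuclear receptors LXR (liver X receptors), and in the arm called ESC it did not. Each arm was sampled at passages 0, 2, 4, 6, 8, 10, 12 and 14 with 2 libraries of polyadenylated RNA, which gave 16 groups and 32 libraries. Passage 0 carries the label of treatment in NrESC too, and the time under T0901317 at that point was not given in the sources used here. No source states that the libraries of 1 group were separate cultures, and the p-values therefore measure only the spread between these samples, which may be technical. All groups come from 1 cell line.

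Apolipoprotein E is the protein of lipoprotein particles that lipoprotein receptors at the cell surface recognise, and it accepts cholesterol and phospholipid that the exporter Abca1 moves out of the cell. Apolipoprotein C1 is a small exchangeable protein of the same particles, known to inhibit lipoprotein uptake and the plasma cholesteryl ester transfer protein, which mice lack. In human and mouse, both genes lie with Apoc4 and Apoc2 in 1 cluster. LXR, partnered with the retinoid X receptor, is activated by oxysterols, and Apoe is among its known target genes in macrophages and adipocytes. In those cells LXR has been found to act on the cluster through enhancers downstream of the genes.

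The 250 bases before the first of the 3 Apoe transcription starts in RefSeq are shown because LXR-RXR dimers are known to bind repeats of the half-site AGGTCA. They lie at chr7:19699189-19699438 in GRCm38.p6, are read from the minus strand, and end at the base before the start, with capitals marking the 1 copy of the related letters GGGTCA.

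Apoe upstream window: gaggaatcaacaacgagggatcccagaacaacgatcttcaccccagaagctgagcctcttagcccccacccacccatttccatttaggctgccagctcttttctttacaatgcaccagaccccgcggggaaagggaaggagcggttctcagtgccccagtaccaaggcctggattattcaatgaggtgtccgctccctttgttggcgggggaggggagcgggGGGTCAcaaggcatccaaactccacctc

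The letters GGGTCA begin 28 bases before the start, and 11.6% of the 32851 promoter windows of equal length in the same table hold them on either strand. AGGTCA was not found on either strand in any of the 3 Apoe windows and is present in 14% of all windows, while the direct repeat of AGGTCA with 4 bases between its copies occurs in 0.0152%. These matches describe letters only. The window had a GC content of 57.2% and 8 CG dinucleotides.

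Library totals lay between 25062538 and 50463483 counts in NrESC, and between 24989651 and 45818061 counts in ESC, with TMM scaling factors of 0.979 to 1.03. All 18 embryonic stem cell markers were detected in both arms, and their summed level was 11827 to 13854 TPM over the NrESC groups and 11262 to 12492 TPM over the ESC groups. The NrESC libraries of passage 8 stood apart. Their median gene lay 0.213 (log2) from the mean of the other NrESC passages, against at most 0.148 for any other group of either arm, and the main results are also given without passage 8.

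Apoe was among the more abundant transcripts of these cells and was higher in NrESC at every passage. Over the 8 passage means it averaged 765 ± 123 TPM (the length-corrected level that the authors scaled to an equal sum per library; SD) in NrESC and 561 ± 118 TPM in ESC. Ranked by that level it was gene 170 of 24890 in NrESC and gene 228 in ESC. Apoc1 averaged 305 ± 42.7 TPM in NrESC and 266 ± 26.1 TPM in ESC, and ranked 487 in NrESC and 568 in ESC. Apoe changed by a log2 fold change of 0.48 (SE 0.010) in the mean of 8 passages and Apoc1 by 0.23 (SE 0.022), where the SE reflects how the 2 libraries of each group differ and not how passages differ.

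The level of Apoe was read in each library, starting with the passages before the arms drew further apart. At passage 0, Apoe had 811 and 809.9 TPM in NrESC, against 665 and 671 TPM in ESC. At passage 2 it had 754 and 804 TPM in NrESC, against 655 and 652 TPM in ESC, and at passage 4 it had 689 and 706 TPM in NrESC, against 632 and 640.1 TPM in ESC. In these 3 passages both NrESC libraries lay above both ESC libraries, by less than at any later passage. At passage 6 it had 663 and 675 TPM in NrESC, against 446 and 436 TPM in ESC. At passage 8 the values were 1068 and 1012 TPM in NrESC, against 701 and 708 TPM in ESC. Passage 6 was low in ESC beside passages 0 to 4, and passage 8 was the highest group of each arm in TPM. In CPM (counts scaled to the library total and its TMM factor), however, ESC was highest at passage 0. At passage 10, Apoe had 660.2 and 654 TPM in NrESC, against 396 and 394 TPM in ESC. At passage 12 it had 721 and 711 TPM in NrESC, against 501 and 493 TPM in ESC, and at passage 14 it had 758 and 751 TPM in NrESC, against 471 and 508 TPM in ESC. The ESC libraries of passages 6, 10, 12 and 14 were all below the ESC libraries of passages 0, 2, 4 and 8, while NrESC showed no such separation.

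**Figure D1:**
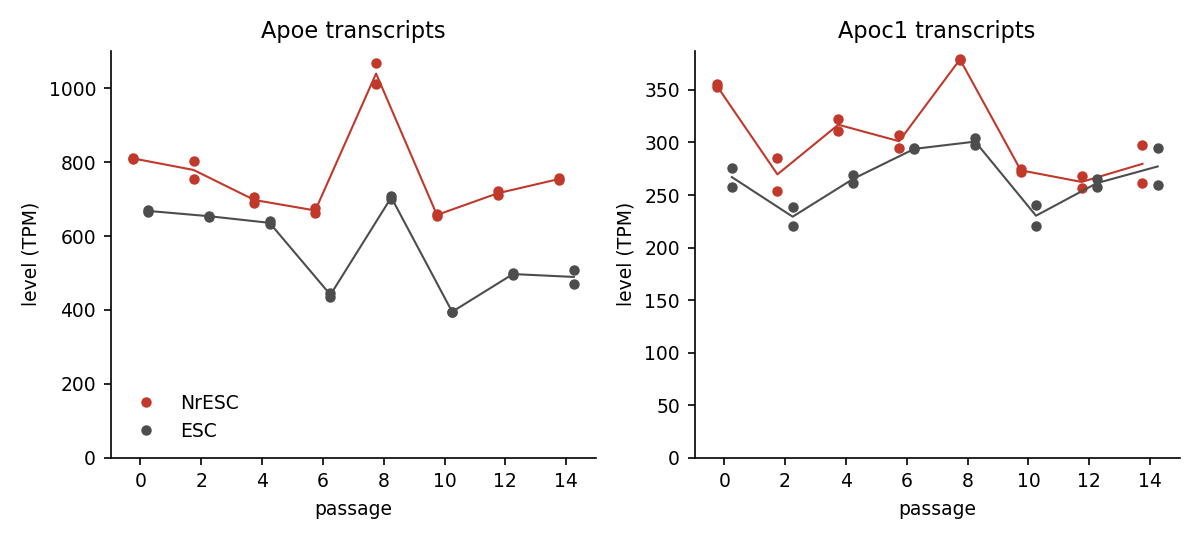
Level of Apoe (left) and Apoc1 (right) in TPM against passage number, with 1 point per library and a line through the mean of the 2 libraries of each group, NrESC in red and ESC in grey. Apoe libraries of NrESC lie above those of ESC at all 8 passages, and Apoc1 libraries of the arms overlap at passages 12 and 14.

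Apoc1, at lower levels, showed smaller differences and fewer separations. At passage 0, Apoc1 had 353 and 355 TPM in NrESC, against 276 and 258 TPM in ESC. At passage 2 it had 285 and 254 TPM in NrESC, against 220.1 and 239 TPM in ESC. At passage 4 the libraries held 311 and 323 TPM in NrESC, against 262 and 269 TPM in ESC. The arms did not overlap in these early passages. At passage 6, Apoc1 had 307 and 295 TPM in NrESC, against 293 and 294 TPM in ESC, which left the arms almost touching. At passage 8 it had 379 and 379 TPM in NrESC, against 304 and 297 TPM in ESC, the highest group of each arm in TPM as for Apoe. In CPM, however, the highest ESC group of Apoc1 was passage 6, with a mean of 35.2 against 33.9 at passage 8. At passage 10, Apoc1 had 275 and 272 TPM in NrESC, against 220.3 and 240.4 TPM in ESC. Passage 10 was the last at which the arms were apart. At passage 12, Apoc1 had 269 and 256.4 TPM in NrESC, against 258 and 265 TPM in ESC, and at passage 14 it had 262 and 298 TPM in NrESC, against 294 and 260 TPM in ESC. At both of these passages the libraries of the arms were interleaved.

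The order of the 16 groups was clearer for Apoe than for Apoc1. For Apoe in TPM, NrESC at passage 8 (1039.8 ± 39.6), NrESC at passage 0 (810.3 ± 0.608) and NrESC at passage 2 (779 ± 35.8; SD of 2 libraries) came first. ESC at passage 10 (395 ± 1.07), ESC at passage 6 (441 ± 6.69) and ESC at passage 14 (489 ± 26.0) came last. Of the 15 pairs of neighbours in that order, 5 overlapped in their libraries, among them NrESC and ESC groups in the middle of the order, such as ESC at passage 8 beside NrESC at passage 4. For Apoc1, 10 of 15 neighbouring pairs overlapped, so most of its middle order was not resolved by 2 libraries. NrESC at passages 8 (379 ± 0.389), 0 (354 ± 1.68) and 4 (317 ± 8.13) headed that order, and in TPM no library of another group reached them. In CPM the Apoc1 libraries of NrESC at passage 4 overlapped those of NrESC at passage 6. Over passages the highest group mean of Apoe was 1.58 times the lowest in NrESC and 1.78 times in ESC, and that of Apoc1 was 1.44 times in NrESC and 1.31 times in ESC.

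The first comparison asked what T0901317 did to these transcripts in the mean of all passages. In edgeR's quasi-likelihood test with Benjamini-Hochberg adjustment over all genes, Apoe was higher in NrESC (adjusted p = 6.79e-35), and so was Apoc1 (adjusted p = 1.08e-12). Genes called higher made up 39.1% of the 15036 tested and genes called lower 39.8%, so that a call alone was common in this comparison. Apoe had a larger fold change than most genes, with 9.45% of tested genes above it, while 22.7% lay above Apoc1, and the median over all tested genes was -0.0014. When the libraries of each group were summed and the spread between passages was used instead, the log2 fold change was 0.48 (SE 0.061, adjusted p = 6.99e-05) for Apoe and 0.23 (SE 0.051, adjusted p = 0.00254) for Apoc1. That fit called 28.3% of genes higher and 27.2% lower. An exact two-sided permutation test that exchanged the arms within the 8 passage pairs gave p = 0.0078 for each gene, the smallest this design allows, since both were higher in NrESC at 8 of 8 passages. No source gives separate cultures for the passages of an arm, so the 8 pairs may not be independent. Tests with passage as the unit, here and below, then do not measure a spread between independently treated cultures. Without passage 8 the log2 fold change in the mean was 0.47 for Apoe and 0.20 for Apoc1, both still called.

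Per passage, Apoe was called higher at 8 of 8 and Apoc1 at 5 of 8. For Apoe the log2 fold change was 0.27 at passage 0, 0.25 at passage 2 and 0.22 at passage 4. It was 0.61 at passages 6 and 8, 0.73 at 10, 0.53 at 12 and 0.64 at 14, each with an SE of 0.029 or 0.030. The largest adjusted p among them was 2.55e-08, at passage 4. Apoe thus differed between the arms by less at passages 0 to 4 than at any later one. The share of tested genes with a higher fold change than Apoe was 26.9% at passage 4, 16.2% at passage 8 and 4.25% at passage 14. At passage 4 the size depended on the scale, 0.13 on log2(TPM + 1) with limma, and the gene was called on both.

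Apoc1 was called higher at passage 0 (0.39, SE 0.060), passage 2 (0.25, SE 0.063), passage 4 (0.36, SE 0.063), passage 8 (0.43, SE 0.059) and passage 10 (0.27, SE 0.063). It was not called at passages 6, 12 and 14. There the log2 fold changes were 0.07 (95% interval -0.05 to 0.20), 0.01 (-0.12 to 0.14) and 0.06 (-0.07 to 0.19), with adjusted p of 0.316, 0.916 and 0.479 from edgeR. The mean over passages, 0.23, lay above the upper bound of each of these intervals. The call at passage 2 rested on 1 library: without NrESC replicate 1 of that passage it was 0.17 with an adjusted p of 0.0865. The share of all tested genes that was called higher was 17.6% at passage 0, 24.7% at 2, 27.4% at 4, 23.6% at 6, 35.2% at 8, 27.0% at 10, 23.1% at 12 and 19.7% at 14. In CPM both NrESC libraries lay above both ESC libraries at 8 of 8 passages for Apoe, which was so for 11.0% of genes. For Apoc1 they did at 6 of 8 passages, and 24.3% of genes reached at least that number.

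**Figure D2:**
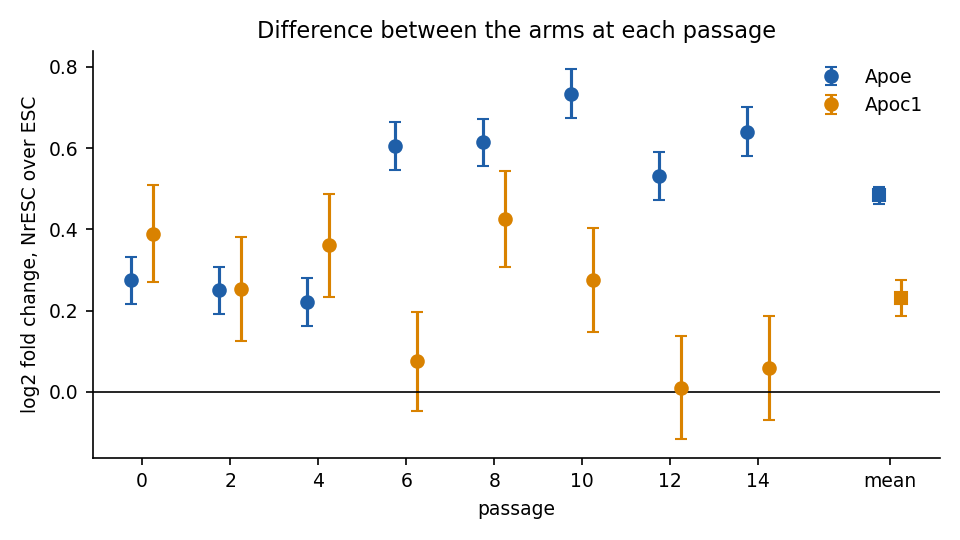
Log2 fold change of NrESC over ESC for Apoe (blue) and Apoc1 (orange) at each passage (circles) and in the mean of 8 passages (squares), with 95% intervals from the quasi-likelihood fit as bars. Apoe lies between 0.22 and 0.73 with no bar reaching 0, and the bars of Apoc1 cross 0 at passages 6, 12 and 14.

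Whether the difference between the arms changed with passage was tested next. It varied among passages for Apoe (adjusted p = 4.29e-16, edgeR's quasi-likelihood test) and for Apoc1 (adjusted p = 4.97e-05), as it did for 69.4% of tested genes. Without passage 8 the adjusted p was 6.71e-15 for Apoe and 0.00142 for Apoc1. In the mean of the later passages, set against passage 0, the difference between the arms went in opposite directions for the 2 genes. For Apoe it gained 0.24 (SE 0.031, adjusted p = 5.51e-08) in the mean of passages 2 to 14 over passage 0, and for Apoc1 it lost 0.18 (log2 -0.18, SE 0.064, adjusted p = 0.0282). Such a gain was called for 13.1% of genes and such a loss for 16.4%. Not every later passage followed. Apoe had 0.25 and 0.22 at passages 2 and 4, against 0.27 at passage 0. Apoc1 had 0.43 at passage 8, against 0.39 at passage 0. The loss in the difference of Apoc1 was not called in DESeq2 (adjusted p = 0.0590), nor when either NrESC library of passage 0 or ESC replicate 2 of passage 0 was left out (-0.16, -0.19 and -0.13, with adjusted p of 0.117, 0.0744 and 0.211). Without passage 8 the change was 0.23 for Apoe and -0.21 for Apoc1, both called. At passage 8 the difference exceeded that of the other passages by 0.15 (SE 0.031, adjusted p = 6.41e-05) for Apoe and by 0.22 (SE 0.063, adjusted p = 0.00278) for Apoc1, with 26.9% of genes called in this direction. For Apoc1 that call was lost in limma on log2(TPM + 1) without a filter (0.16, adjusted p = 0.0712).

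Along passage number the arms had different slopes for both genes in the fit on libraries. Apoe fell by 0.012 (log2 per passage, SE 0.0016) in NrESC and by 0.045 (SE 0.0016) in ESC, with adjusted p of 6.06e-09 and 2.37e-25 from edgeR. Apoc1 fell by 0.023 per passage (SE 0.0032, adjusted p = 6.64e-08) in NrESC, and its slope in ESC was -0.0025 (SE 0.0036, adjusted p = 0.576). A falling slope was called for 31.3% of genes in NrESC and for 28.2% in ESC, and 97.5% of tested genes had a higher slope in ESC than Apoe. The slope of NrESC minus that of ESC was 0.033 for Apoe (adjusted p = 3.00e-15) and -0.020 for Apoc1 (adjusted p = 0.00111), opposite in sign, against 11.2% of genes called positive and 14.2% called negative. Without passage 8 these differences were 0.033 and -0.021. None of these 5 called slopes or slope differences was called when passage was the unit, with adjusted p of 0.735 (Apoe, NrESC), 0.316 (Apoc1, NrESC), 0.180 (Apoe, ESC) and 0.999906 for either difference. The levels moved up and down from passage to passage more than along a line, as the plot of levels by passage shows.

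The share of Apoc1 relative to Apoe was compared directly. Apoc1 had 0.401 ± 0.044 TPM for each TPM of Apoe in NrESC and 0.492 ± 0.109 in ESC (SD over 8 passages). In counts the ratio is smaller, 0.060 to 0.124 over the libraries, since the effective length of Apoe implied by the deposited tables was 5.08 to 5.46 times that of Apoc1. The size of the TPM ratio, and the rank of Apoc1 by TPM, depend on these lengths. The log2 ratio was lower in NrESC by a mean of 0.27 (log2 -0.27, SD 0.31 over 8 passages) and lower at 6 of 8 passages, with p = 0.0703 in an exact two-sided permutation test over passage pairs. Early passages were mixed: passage 0 had a ratio of 0.437 in NrESC and 0.399 in ESC, passage 2 of 0.346 in NrESC and 0.351 in ESC, and passage 4 of 0.454 in NrESC and 0.418 in ESC. The libraries of the arms did not overlap at passages 0 and 4, where the ratio was higher in NrESC, and overlapped at passage 2. From passage 6 on it was lower in NrESC at every passage, with 0.450 in NrESC and 0.666 in ESC at passage 6 and 0.365 in NrESC and 0.427 in ESC at passage 8. Passage 10 gave 0.416 in NrESC and 0.582 in ESC, passage 12 gave 0.367 in NrESC and 0.526 in ESC, and passage 14 gave 0.370 in NrESC and 0.566 in ESC. At these 5 later passages the libraries of the arms did not overlap either. Without passage 8 the mean was -0.28 with an exact p of 0.109, and without passage 0 it was -0.33 with an exact p of 0.0469.

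**Figure D3:**
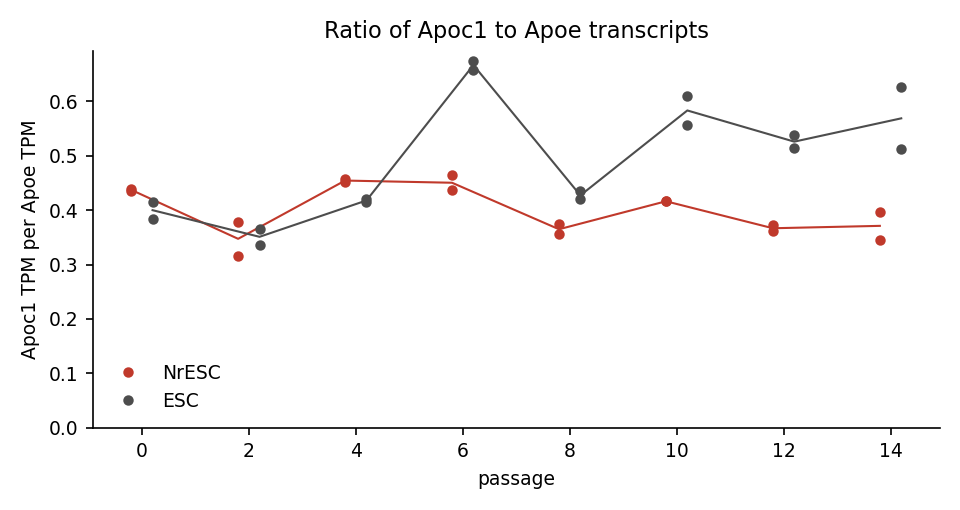
Apoc1 TPM per Apoe TPM against passage number, with 1 point per library and a line through the group means, NrESC in red and ESC in grey. The NrESC groups stay between 0.346 and 0.454, and the ESC groups reach 0.666 at passage 6.

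Between consecutive passages Apoe and Apoc1 moved the same way in 5 of 7 steps in NrESC and in 3 of 7 in ESC. Over the 16 group means of log2 CPM, with the mean of each arm subtracted, the 2 genes had a Pearson r of 0.46, and 0.20 without passage 8. With all passages, Apoc1 ranked 2412 of 11494 genes by r with Apoe, and Apoe ranked 1680 by r with Apoc1. These correlations are descriptions over groups that share libraries and passages. In the same measure the genes most like Apoe were Patl2 (0.95), a regulator of translation in oocytes, Sgsm1 (0.92), Pltp (0.90), the phospholipid transfer protein of plasma lipoproteins, Tmem256 (0.90) and Npc2 (0.90), the soluble carrier of cholesterol in lysosomes. Lowest were Ino80 (-0.90) and Chd1 (-0.88), both chromatin remodellers, and Nin (-0.88), a centrosomal protein. Of the 5 most alike, Pltp had a log2 fold change of 0.54, Tmem256 of 0.49 and Sgsm1 of 0.47 between the arms, close to that of Apoe, whereas Patl2 (0.04, adjusted p = 0.362, edgeR) and Npc2 (-0.01, adjusted p = 0.484) were not called. The genes most like Apoc1 were Rnasek (0.86), Plekhf1 (0.85), Marc2 (0.85), Ppp3ca (0.85), the catalytic subunit of calcineurin, and Atp5b (0.85), a subunit of ATP synthase, and the lowest were Gapvd1 (-0.89), Vps4b (-0.88) and Fam53c (-0.86).

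Other apolipoprotein genes did not share 1 direction. Of the 34 listed, 15 were tested, and beside Apoe and Apoc1 3 of the other 13 were called higher and 7 lower, with a median log2 fold change of -0.34, beside 39.1% of all tested genes called higher and 39.8% called lower. Without passage 8, 6 members of the list were called lower in place of 7. Clu, the secreted chaperone clusterin, rose most, with 24.5 ± 5.88 TPM in NrESC and 14.7 ± 2.83 TPM in ESC (SD over 8 passage means, here and for the genes below; log2 0.74, SE 0.028). Apom, an apolipoprotein of high density lipoprotein that carries sphingosine 1-phosphate, was lower, with 9.39 ± 2.42 TPM in NrESC and 21.9 ± 6.60 TPM in ESC (log2 -1.16, SE 0.052). Apol7b had the lowest value (log2 -1.64, SE 0.19), at 0.142 TPM in NrESC and 0.518 TPM in ESC. Apob, the structural protein of large lipoproteins, was lower too (log2 -1.38, SE 0.099) at 0.0912 TPM in NrESC and 0.246 TPM in ESC, while Apool (0.55, SE 0.033), a protein of mitochondrial cristae, and Apod (0.16, SE 0.023) were the others called higher. In the cluster itself, Apoc2, the activator of lipoprotein lipase, was below the filter with 0.974 ± 0.255 TPM in NrESC and 0.595 ± 0.235 TPM in ESC. Apoc4 had 1.496 ± 0.301 TPM in NrESC and 1.89 ± 0.677 TPM in ESC (log2 -0.25, SE 0.23, adjusted p = 0.321, edgeR). Apoe and Apoc1 had the highest levels of the 34 in both arms, with Apoo, a protein of the mitochondrial inner membrane, next at 36.5 TPM in NrESC and 46.6 TPM in ESC.

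The receptors that take up apolipoprotein E, with their adaptors and regulators, were called higher in 10 of 16 tested members and lower in 4, with a median of 0.11, beside 39.1% of all tested genes called higher and 39.8% called lower. Mylip, a ubiquitin ligase that acts on lipoprotein receptors, had 19.9 ± 3.09 TPM in NrESC and 4.19 ± 0.628 TPM in ESC (log2 2.27, SE 0.028). Scarb1, a receptor for high density lipoprotein, had 70.7 ± 13.9 TPM in NrESC and 50.1 ± 6.21 TPM in ESC (log2 0.49, SE 0.014). The receptors Vldlr (0.78, SE 0.034) and Lrp8 (0.55, SE 0.033) were also higher, and Lrp1 (-0.14, SE 0.010) and Lrpap1 (-0.34, SE 0.011), a chaperone of lipoprotein receptors, were lower. Lrp1b was the lowest member (-0.87, SE 0.19), at 0.0356 TPM in NrESC and 0.0587 TPM in ESC.

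Genes that load lipid onto apolipoproteins or remodel the particles were called higher in 10 of 16 tested members and lower in 3, with a median of 0.28, beside 39.1% of all tested genes called higher and 39.8% called lower. The sterol exporters Abcg1 (36.5 ± 10.2 TPM in NrESC, 2.03 ± 0.527 in ESC, log2 4.18) and Abca1 (68.0 ± 6.90 TPM in NrESC, 8.13 ± 1.67 in ESC, log2 3.10) led them. Pltp, the gene that was also among the most like Apoe, had 70.6 ± 13.2 TPM in NrESC and 49.1 ± 9.77 TPM in ESC. Hepatic lipase, Lipc, was lowest (-0.35, SE 0.15). Among LXR target genes outside the cluster, 25 of 30 tested were called higher and 3 lower, beside the same shares of all genes, and their median of 0.79 was above the values of Apoe and of Apoc1. This list shares members with the others, among them Abca1, Abcg1 and Pltp of the lipidation genes and Mylip of the receptor genes. The counts of these lists are therefore not independent. Without passage 8, 8 receptor and adaptor genes, 11 lipidation genes and 23 LXR target genes were called higher. The lipogenic enzymes Scd1 (2.21, SE 0.0089) and Scd2 (1.66, SE 0.0070) were among them, and Mlxipl, a glucose-responsive transcription factor, had the lowest value (-0.31, SE 0.030). Over the 16 groups, after subtracting arm means, the r with Apoe was 0.81 for Scd1, 0.72 for Srebf1, a transcription factor of lipid synthesis, 0.24 for Abcg1 and -0.48 for Abca1. Among 11494 genes Scd1 ranked 127, Srebf1 520, Abcg1 4060 and Abca1 9503 by this r. Without passage 8 the r was 0.85 for Scd1, 0.79 for Srebf1, -0.41 for Abcg1 and -0.79 for Abca1. With no subtraction it was positive for all 4, 0.63 for Abca1 and 0.70 for Abcg1 among them.

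**Figure D4:**
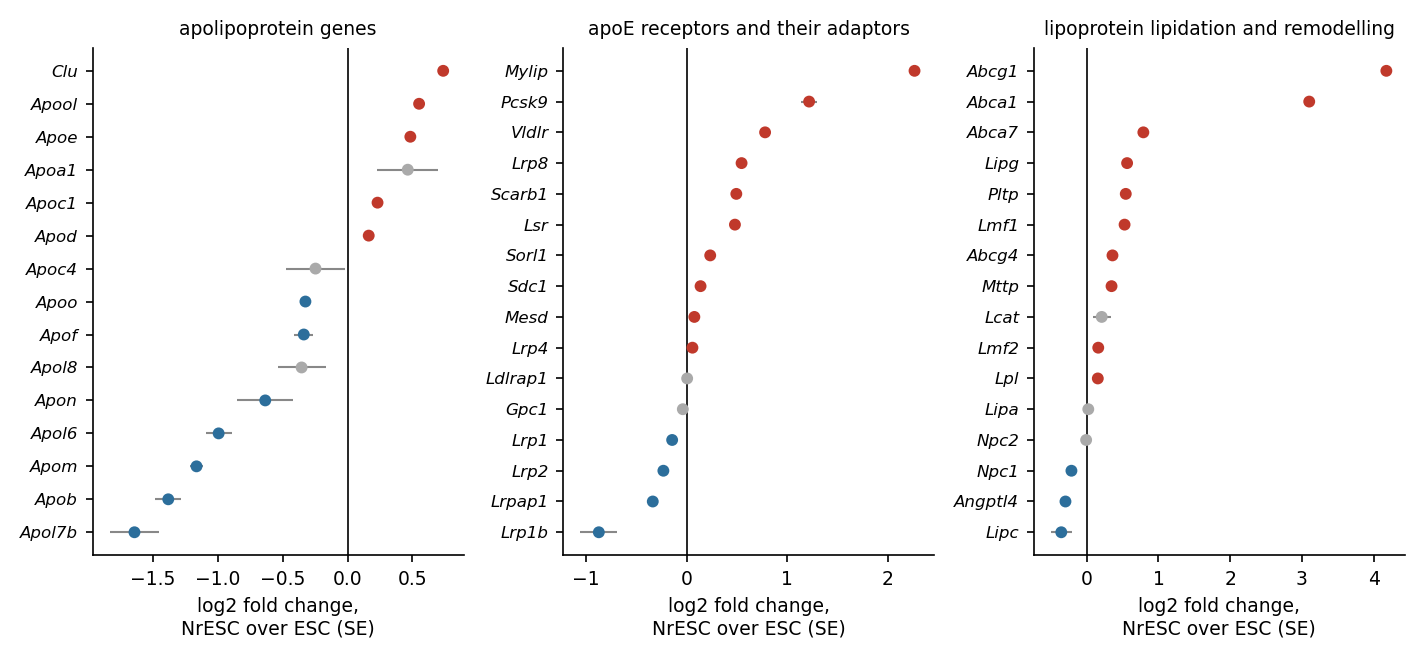
Log2 fold change of NrESC over ESC in the mean of 8 passages for the tested genes of the 3 lists, apolipoproteins (left), receptors and adaptors (middle) and lipidation and remodelling (right), with SE as bars. Red points were called higher, blue points lower and grey points not called. Abcg1 reaches 4.18 in the right panel and Apol7b -1.64 in the left.

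The neighbours of the pair on the chromosome were read in RefSeq order, 10 protein-coding genes to either side of Apoe, without Apoc1. Of these 19 genes 17 were tested, 11 were called higher and 3 lower, beside 39.1% of all tested genes called higher and 39.8% called lower, and their median was 0.19. Bcam, an adhesion molecule that binds laminin and lies 3 genes from Apoe, had 196 TPM in NrESC and 133 TPM in ESC (log2 0.58, SE 0.011), above the value of Apoe, although the 2 values were not tested against each other. Nectin2, an adhesion molecule of cell junctions, had 109 TPM in NrESC and 88.8 TPM in ESC (0.29, SE 0.014). Tomm40, the channel of the mitochondrial outer membrane, is the next gene to Apoe and had 290.1 TPM in NrESC and 292 TPM in ESC (0.00, SE 0.015, adjusted p = 0.829, edgeR). Relb (0.41, SE 0.020) and Bcl3 (0.29, SE 0.016), both of the NF-kappa-B family and its partners, Clptm1 (0.15, SE 0.012) and Cblc (0.11, SE 0.044) were also called higher. Zfp296, a zinc finger gene 8 places away, had 49.0 TPM in NrESC and 61.5 TPM in ESC (-0.35, SE 0.017). Clasrp (0.31, SE 0.017) was called higher and Gemin7 (-0.31, SE 0.034) lower. Whether reads were assigned by strand was not given in the sources used here.

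**Figure D5:**
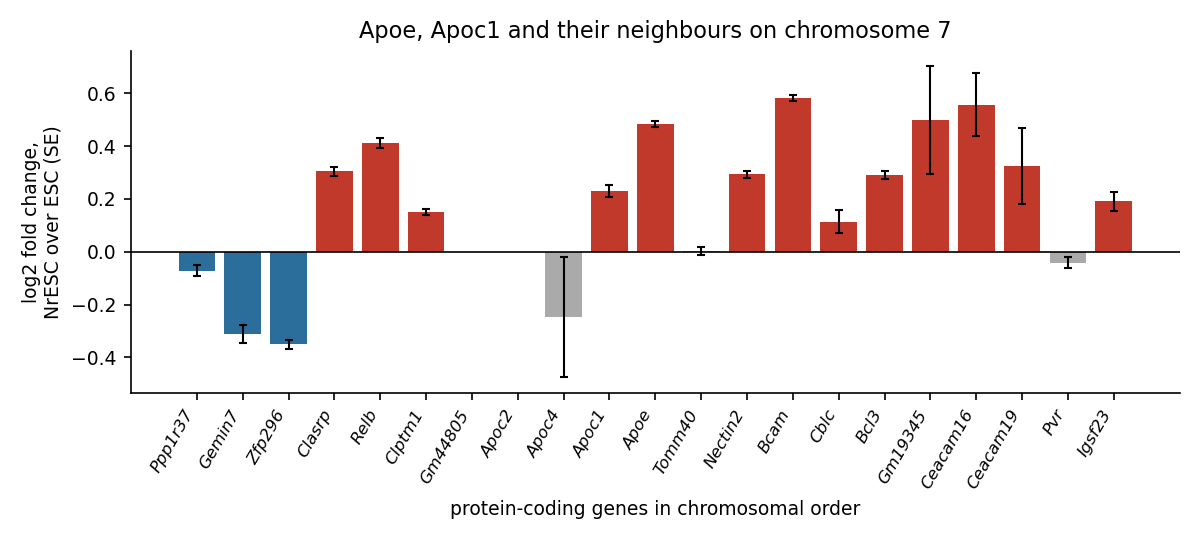
Log2 fold change of NrESC over ESC in the mean of 8 passages for Apoe, Apoc1 and the protein-coding genes around them in chromosomal order, with SE as bars; red was called higher, blue lower, grey not called, and genes without a bar were not tested. Bcam at 0.58 is the highest and Zfp296 at -0.35 the lowest.

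Macrophages, astrocytes, fibroblasts and visceral endoderm also express Apoe, and their markers were read beside it. The counts of called markers below stand beside 39.1% of all tested genes called higher and 39.8% called lower. In bulk RNA, more cells of a type and more RNA per cell cannot be told apart. Of 16 macrophage markers 11 were under 0.1 CPM, among them the defining genes Ptprc, Csf1r and Adgre1. Their sum was 13.3 to 22.6 TPM over the NrESC groups and 12.0 to 28.3 TPM over the ESC groups, with 2 of 5 tested members called higher and 2 lower (Mrc1 0.87 and Spi1 0.20 against Cd68 -0.63 and Itgam -0.34). The astrocyte and neural progenitor markers summed to 95.03 to 129 TPM in NrESC and 99.2 to 151 TPM in ESC, and 3 of 7 tested were higher (Slc1a3 1.03, Aldh1l1 0.57) and 3 lower (Pax6 -1.98, Nes -0.63, Tubb3 -0.47). Aqp4 was at or near 0. Fibroblast markers summed to 133 to 206 TPM in NrESC and 228 to 277 TPM in ESC, mostly Vim (-0.49), with 3 of 7 tested higher, led by Col1a1 (0.42) and including Pdgfrb (0.31), and 3 lower, including Fbn1 (-0.40). Lum was at 0 in every library.

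Primitive and visceral endoderm markers summed to 344 to 458 TPM in NrESC and 334 to 462 TPM in ESC, with 4 of 21 tested called higher and 10 lower, or 3 and 12 without passage 8. Gata4 was highest among those called (0.34, SE 0.037), Col4a1 (-0.54), Lama1 (-0.26) and Apom (-1.16) were lower, and Cubn was lowest (-1.43, SE 0.26). Apom and Apob, both called lower, are members of this list and of the apolipoprotein list, so they were counted in each. Afp and Ttr were near 0. Of the embryonic stem cell markers 5 were called higher, with Dppa5a at 0.45, and 13 lower, with Nanog at -0.45, Sall4 at -0.37, Zfp42 at -0.32 and Dppa3 lowest at -1.29, and without passage 8 the counts were 6 higher and 12 lower. Of the 5 summed levels, that of the fibroblast markers did not overlap between the arms and was lower in NrESC, and the ranges of the other 4 overlapped. Set against each other within passages, the stem cell sum was higher in NrESC at 8 of 8 passages, the astrocyte and fibroblast sums at 0 of 8, the macrophage sum at 1 of 8 and the endoderm sum at 2 of 8. The stem cell sum averaged 12986 TPM in NrESC and 11942 TPM in ESC. Its largest member was Dppa5a, with 6461 TPM in NrESC and 4792 TPM in ESC. In these means Dppa5a rose by more than the whole sum, while 13 members were called lower. Vim, the largest fibroblast marker, had 155 TPM in NrESC and 218 TPM in ESC, beside list sums of 174 and 237 TPM. Tubb3 had 65.9 TPM in NrESC and 91.1 TPM in ESC, beside astrocyte sums of 112 and 134 TPM. Cd68 had 10.9 TPM in NrESC and 17.3 TPM in ESC, beside macrophage sums of 17.7 and 23.5 TPM. Each of these genes was lower in NrESC by more than its whole sum, so the lower sums do not describe the other members. The part of other cell types in the levels of Apoe and Apoc1 was not tested beyond these values.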

How the data were processed

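Polyadenylated RNA of 32 libraries was analysed, 2 for each of 2 arms at 8 passages. For each gene symbol the authors deposited an expected count, without normalization, and a TPM value, which the authors had scaled to length and to an equal sum per library. STAR, RSEM, Cufflinks 2.2.1, HTSeq 0.12.4, DESeq2, edgeR and the build mm9 stand in the submitters' processing notes, without the role of each tool. The annotation and strand setting were not given in the sources used here. Expected counts, 0.837% of them fractional, were rounded. Genes were filtered with filterByExpr and fitted with edgeR 4.0.16 (R 4.3.3, TMM, 1 mean per group, 16 residual degrees of freedom), with a threshold of 0.05 on Benjamini-Hochberg adjusted p over all tested genes. The same counts summed per group gave the fit with passage as the unit (7 residual degrees of freedom for the mean, 12 for slopes). A gene's level in TPM is used for comparisons between genes, and log2 fold changes come from counts. limma 3.58.1, DESeq2 1.42.0, other scalings, filters, pseudocounts and leaving out libraries or passages were the alternatives. The model was also run on simulated libraries, drawn independently with a constant fold change in NrESC for some genes. That run cannot bear on libraries or passages that share a culture.

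The genes, the lists and the rule for naming genes were chosen with earlier results of these data known, and the lists were not tested as sets. From each list the 3 members with the smallest p in the mean and the highest and lowest called members were named, besides Apoc2, Apoc4 and the nearby genes, and for likeness the 5 highest and 3 lowest Pearson r among tested genes of at least 1 mean log2 CPM. Apob, Apod, Apool, Apoo, Vldlr, Lrp8, Lrp1, Srebf1, Itgam and the markers said to be near 0 were named outside it, after their values were seen. The result of 1 further gene of the receptor list is not reported here. Replicate numbers were not taken as pairs in the main fit. No batch was labelled. Promoter windows came from RefSeq, where Apoe matched, and the sequence of Apoc1 was not used here. Intervals cover the spread between libraries only.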

Additional observations from a re-analysis of the deposited data

Results flagged for a closer look

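The tests of a change in the NrESC over ESC difference with passage passed for both genes, and each is given here as a value. The difference varied among passages with an adjusted p of 4.29e-16 for Apoe and 4.97e-05 for Apoc1 (edgeR). Between passage 0 and the mean of the later passages it changed by 0.24 (log2) for Apoe and by -0.18 for Apoc1, which is an opposite sign. For Apoc1 that change was not called in DESeq2 (adjusted p = 0.0590) and ran from -0.243 to -0.132 without single libraries. At passage 8, whose NrESC libraries lay far from the rest of their arm, the difference exceeded the other passages by 0.15 for Apoe and 0.22 for Apoc1. The excess of Apoc1 was not called in limma on log2(TPM + 1) without a filter (adjusted p = 0.0712). The slope of NrESC minus that of ESC was 0.033 log2 per passage for Apoe and -0.020 for Apoc1, and neither was called with passage as the unit.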

How the results depend on the processing

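Apoe and Apoc1 were called higher in the mean of passages under all 11 alternatives other than leaving out single libraries, with log2 fold changes of 0.46 to 0.51 for Apoe and 0.19 to 0.24 for Apoc1. With passage as the unit the slopes were no longer called: -0.012 (Apoe) and -0.023 (Apoc1) in NrESC, -0.045 for Apoe in ESC, and 0.033 (Apoe) and -0.020 (Apoc1) for the difference. That fit also called fewer list members, beside 28.3% of all tested genes called higher and 27.2% called lower. It left 20 LXR target genes called higher in place of 25, and 1 called lower in place of 3. For receptor and adaptor genes and for lipidation genes, 8 were called higher in place of 10. Of the stem cell markers 9 were called lower in place of 13, and 1 macrophage marker was called higher in place of 2. The uncalled slope of Apoc1 in ESC turned positive without passage 0 (0.0036) and in limma on log2(TPM + 1), with or without a filter, and on log2(TPM + 0.1) (0.0043 in each). The excess of Apoc1 at passage 8 was 0.16 in limma without a filter (adjusted p = 0.0712), and its loss after passage 0 was -0.18 in DESeq2 (adjusted p = 0.0590). The Apoc1 to Apoe ratio was -0.33 without passage 0. The causes were not tested. Leaving out single libraries gave ranges for Apoc1 of -0.243 to -0.132 for the loss after passage 0, 0.167 to 0.318 at passage 2, -0.033 to 0.062 at passage 12, -0.031 to 0.158 at passage 14 and -0.0066 to 0.00099 for the slope in ESC. The r of Apoc1 with Apoe was 0.66 with no subtraction of arm means. With the replicate number as a block, the mean was 0.48 for Apoe and 0.23 for Apoc1 and no call on either gene changed. The difference between the 2 libraries of a group correlated between the arms of a passage at -0.054 to 0.069. No shared deviation was seen, which cannot tell whether libraries of equal number were handled together. With 2 libraries in a group, the precision of a single passage is limited, which the intervals of Apoc1 show.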
